A study of Mus musculus with 12 samples.

Results

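Stc1 and Stc2, the mouse stanniocalcin genes, and Ucp2, the gene of uncoupling protein 2, were followed through 12 RNA sequencing libraries of bone marrow-derived macrophages. The 3 genes were taken by symbol from the 55604 genes of the count files. In 3 groups of 4 libraries, macrophages had been given B16-F10 melanoma corpses that overexpressed STC1 (STC1OE corpses), had been given control B16-F10 corpses, or had been kept without corpses and are labelled untreated. B16-F10 is an established mouse melanoma line. The macrophages of all groups were C57BL/6 cells grown from bone marrow with M-CSF at 20 ng/ml and taken on day 7; corpses were loaded at a ratio the labels give as 1 to 5, cultured for 20 h and washed off. The design names 4 independent experiments per condition, but no label says whether animals or corpse preparations differed between them. How the corpses were made, what promoter drives the construct, whether it carries mouse Stc1 with its untranslated regions, and how many clones were used are not stated in the labels. A corpse is dead tumour material added to the dish, so a library holds macrophage RNA together with whatever corpse RNA was left.

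Stanniocalcins are secreted glycoprotein hormones first known from the calcium balance of fish. In mammals, STC1 and STC2 act mostly on neighbouring cells, both inhibit the pappalysin proteases that release insulin-like growth factors from their binding proteins, and both are induced by hypoxia or endoplasmic reticulum stress in several cell types. UCP2 is a carrier of the inner mitochondrial membrane that moves 4-carbon metabolites against phosphate and limits the formation of superoxide. It is the abundant uncoupling protein of macrophages, and recombinant STC1 has been reported to induce it in cultured macrophages while lowering superoxide.

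Each library held 28488441 to 39981074 reads assigned to genes. The share of reads that named no gene was 43.4% to 46.6% with STC1OE corpses, where libraries 3 and 4 were the highest, 41.3% to 41.6% with control corpses and 41.0% to 45.5% in macrophages alone, where libraries 1 and 2 were the highest. It was higher in every STC1OE-corpse library than in any control-corpse library, and its part in the results below was not tested. Levels are given as CPM, reads scaled to the size of the library. On that scale 3 reads are 0.0750 to 0.105 CPM, the limit that a count of 0 allows. All 8 macrophage markers passed the filter on low counts in the groups, where Adgre1, Csf1r, Cd68, Itgam, Mertk, Fcgr1, Lyz2 and Mrc1 together gave 13522 to 14652 CPM with STC1OE corpses, 13638 to 15321 CPM with control corpses and 15989 to 16881 CPM in macrophages alone. Of the 10 melanocyte markers, 9 were below 1 CPM in macrophages alone, all but Mitf, which macrophages also express. These 9 together gave 3.21 to 4.67 CPM with STC1OE corpses, 9.78 to 13.1 CPM with control corpses and 0.205 to 0.593 CPM in macrophages alone. Melanocyte marker reads were thus lower in every STC1OE-corpse library than in any control-corpse library. Fewer remaining corpses, less RNA per corpse and less of these 9 transcripts in the STC1OE corpses to begin with cannot be told apart.

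The stretches that hold the longest run shared by the coding sequences of Stc1 and Stc2 are shown first, because both genes had so few reads that a shared stretch could decide a count. They are GENCODE vM21 coding bases, 58 to 114 of Stc1-201 on chromosome 14 and 639 to 695 of Stc2-201 on chromosome 11, with the identical bases in capitals.
Stc1: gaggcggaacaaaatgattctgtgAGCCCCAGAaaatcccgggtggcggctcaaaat
Stc2: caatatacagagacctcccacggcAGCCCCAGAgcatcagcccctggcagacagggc
The longest identical run was 9 bases, against sequenced reads of 150 bases. Of the 5254 distinct 31-base words in Stc2 transcripts, 0 occur in transcripts of any other gene. Stc1 shared 201 of its 4167 words, 4.82%, with its antisense partner Gm41192 and with Srek1. No source used here gives the strand setting of the counting, so reads of Stc1 and of an antisense transcript there cannot be told apart.

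Stc1 (ENSMUSG00000014813.9, GRCm38 chromosome 14, 69029238 to 69041804, plus strand) was the overexpressed gene by the label of the corpses, and it was almost unread in every group. Its single annotated coding transcript has 4 exons and 4197 bases, of which 741, or 17.7%, are coding. STC1OE-corpse libraries 1 to 4 held 2, 3, 7 and 5 Stc1 reads, control-corpse libraries held 3, 0, 2 and 0, and libraries of macrophages alone held 0, 2, 0 and 3. Only libraries 3 and 4 with STC1OE corpses exceeded 3 reads, and the groups overlapped at 2 and 3 reads.

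Summed over a group, Stc1 had 17 reads with STC1OE corpses, against 5 with control corpses and 5 without corpses. These sums are 0.130 CPM with STC1OE corpses (exact 95% Poisson interval 0.0756 to 0.208), 0.0353 CPM with control corpses (0.0115 to 0.0823) and 0.0400 CPM in macrophages alone (0.0130 to 0.0933), with intervals that cover counting error only. The level per library was 0.130 ± 0.0700 CPM with STC1OE corpses, 0.0328 ± 0.0387 CPM with control corpses and 0.0391 ± 0.0458 CPM in macrophages alone (SD, n = 4 each). Per assigned read, the STC1OE-corpse group had 3.68 times the Stc1 reads of the control-corpse group, with an exact conditional binomial 95% interval of 1.30 to 12.7. Over libraries, a two-sided exact permutation test of that difference gave p = 0.0571, and 0.257 after Benjamini-Hochberg adjustment over the 6 stanniocalcin comparisons.

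Against macrophages alone, the ratio of Stc1 with STC1OE corpses was 3.25 (1.15 to 11.3), with an exact permutation p of 0.0857 and 0.257 after adjustment. Control corpses against macrophages alone gave 0.883 (0.203 to 3.84) and an exact permutation p of 0.829. The smallest p that 4 against 4 libraries allow is 0.0286, so neither Stc1 difference was larger than the spread between libraries by this test, although the counting intervals of the 2 comparisons with STC1OE corpses lie above 1. Both comparisons share the STC1OE-corpse libraries. Without STC1OE-corpse library 1, the lowest of its group, the unadjusted exact permutation p was 0.0286 in each, the smallest that 35 arrangements allow. Without library 3 the lower ends of the counting intervals were 0.886 and 0.782. Libraries 1 and 2 held 5 Stc1 reads with STC1OE corpses and 3 with control corpses, while libraries 3 and 4 held 12 and 2.

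**Figure D1:**
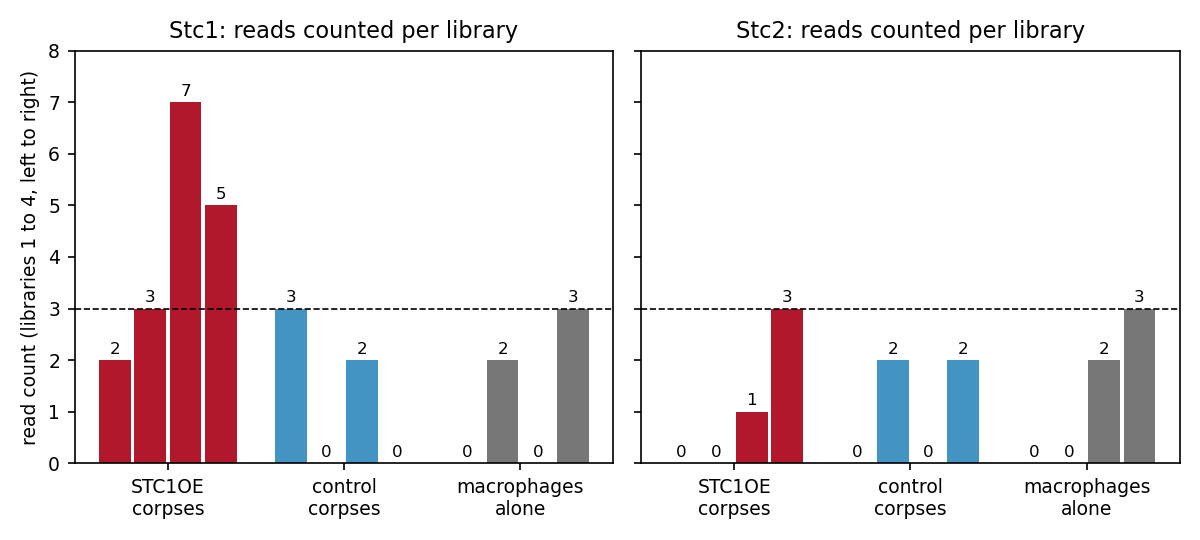
Reads counted for Stc1 (left) and Stc2 (right) in libraries 1 to 4 of each group; bars start at 0, the number above each bar is its read count, and the dashed line marks 3 reads. Stc1 is above the line in libraries 3 and 4 with STC1OE corpses, at 7 and 5 reads, and Stc2 is above it in none.

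Stc1 reads did not keep 1 ratio to the melanocyte markers. For every 1000 reads of the 9 low melanocyte markers there were 33.8 Stc1 reads with STC1OE corpses (17 to 503 reads), 3.03 with control corpses (5 to 1652 reads) and 90.9 in macrophages alone (5 to 55 reads). The last ratio rests on so few reads of either kind that it shows only that some Stc1 reads were found where melanocyte markers were near 0. Which cells the Stc1 reads came from was not tested. Antisense Gm41192, whose annotated span overlaps the 5′ end of Stc1, had 0 reads in all 12 libraries, and so did Adam28 and Nkx2-6, the nearest protein-coding genes on either side. The pseudogene Rps2-ps5, 116866 bases away on the same strand, had 10 reads with STC1OE corpses and 6 with control corpses, while macrophages alone had 14, numbers as small as those of Stc1.

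Stc2 (ENSMUSG00000020303.2, GRCm38 chromosome 11, 31357307 to 31370074, minus strand) was as low and showed no order between groups. Its reads were 0, 0, 1 and 3 with STC1OE corpses, 0, 2, 0 and 2 with control corpses, and 0, 0, 2 and 3 in macrophages alone. Each group had 2 libraries at 0 and none above 3 reads, and the 3 groups overlapped fully. The sums were 4 reads or 0.0305 CPM with STC1OE corpses (0.00832 to 0.0781), 4 reads or 0.0282 CPM with control corpses (0.00769 to 0.0723), and 5 reads or 0.0400 CPM in macrophages alone (0.0130 to 0.0933). The STC1OE-corpse group had 1.08 times the control-corpse level (0.201 to 5.81) and 0.764 times that of macrophages alone (0.152 to 3.55). Control corpses gave 0.706 times the level of macrophages alone (0.140 to 3.28). The two-sided exact permutation tests of these 3 comparisons gave p = 1, 0.829 and 0.829, and a difference inside these intervals was not detectable at this depth.

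Levels per kilobase divide by all annotated exons of a gene merged, 4197 bases for Stc1 and 5175 for Stc2. On that scale Stc1 was above Stc2 in 4 of 4 libraries with STC1OE corpses. The levels were 0.0321 ± 0.0176 and 0.00588 ± 0.00808 CPM per kilobase (SD, n = 4). An exact sign permutation of the 4 pairs gave p = 0.125, which is the smallest it can give. With control corpses Stc1 was the higher in 2 of 4 libraries, and in macrophages alone it was the higher in 2 and the lower in 1. Over all 12 libraries Stc1 had 27 reads and Stc2 had 13, which placed them at or above 63.8% and 60.3% of the 55604 genes, of which 25748 had no read at all.

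Ucp2 (ENSMUSG00000033685.13, GRCm38 chromosome 7, 100493337 to 100502020, plus strand) was abundant and nearly level. It had 340189 reads in all, at or above 99.8% of genes. Its reads were 27295, 25829, 26526 and 31213 with STC1OE corpses, 34740, 28602, 30724 and 29091 with control corpses, and 24160, 24710, 27968 and 29331 in macrophages alone. After TMM scaling, which sets libraries to a common level over most genes, these became 842, 838, 878 and 922 CPM with STC1OE corpses, 864, 874, 861 and 861 CPM with control corpses, and 834, 841, 818 and 828.9 CPM in macrophages alone. The STC1OE-corpse libraries spread on both sides of the control-corpse libraries, with libraries 3 and 4 above all of them and libraries 1 and 2 below. Control-corpse libraries did not overlap macrophages alone, while the STC1OE-corpse library 2 lay inside the range of macrophages alone.

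With TMM scaling, the mean levels were 870 ± 39.3 CPM with STC1OE corpses, 865 ± 6.00 CPM with control corpses and 830 ± 9.71 CPM in macrophages alone (SD, n = 4 each). The STC1OE-corpse and control-corpse means did not differ beyond their spread. The coefficient of variation was 4.52% within the STC1OE-corpse group, 0.694% within the control-corpse group, 1.17% within macrophages alone and 3.30% over all 12 libraries. Per kilobase of merged exons, 6989 bases for Ucp2, the level was 124 CPM with STC1OE corpses, 124 CPM with control corpses and 119 CPM in macrophages alone. Of the 16308 tested genes with a length, 246 were higher per kilobase than Ucp2 with STC1OE corpses, 239 were higher with control corpses, and macrophages alone had 254 such genes. Scaled by assigned totals instead, the Ucp2 means were 845 ± 22.8 CPM with STC1OE corpses and 869 ± 9.12 CPM with control corpses. Macrophages alone had 849 ± 7.83 CPM, so the order of the groups changed with the scaling.

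**Figure D2:**
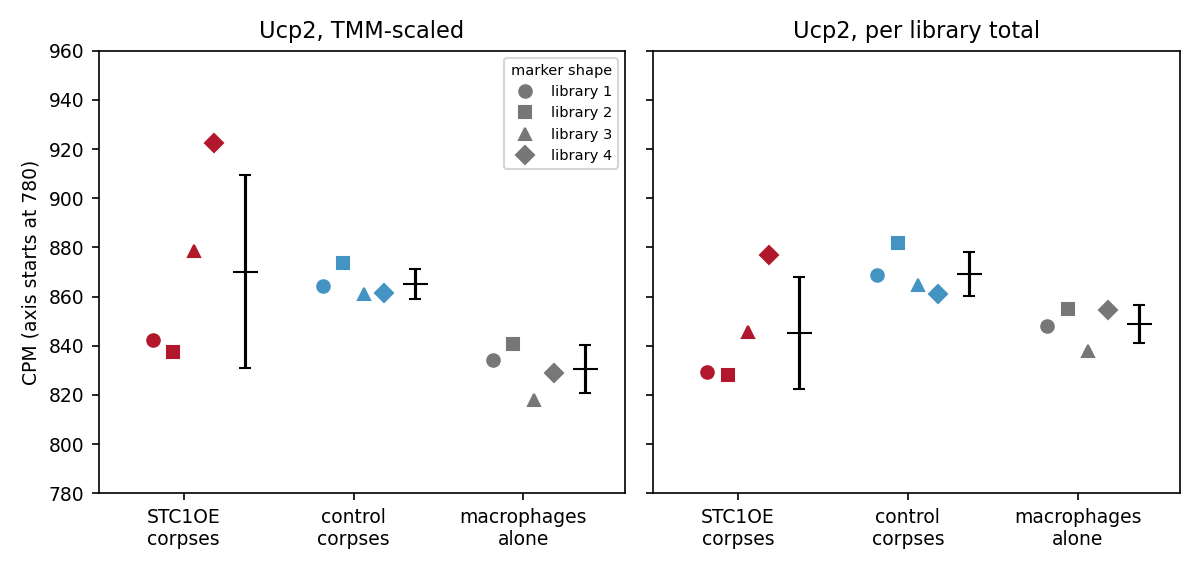
Ucp2 level in CPM by group, scaled with TMM (left) and by the total of assigned reads (right); each marker is a library, with its shape giving the library number, and the black bar is the mean ± SD of 4 libraries, on an axis that starts at 780. With TMM scaling, libraries 3 and 4 with STC1OE corpses, at 878 and 922 CPM, stand above the control-corpse libraries, and libraries 1 and 2, at 842 and 838 CPM, stand below them. By assigned totals the STC1OE-corpse mean of 845 CPM is the lowest, against 869 CPM with control corpses and 849 CPM in macrophages alone.

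Between the corpse groups, edgeR's quasi-likelihood test found Ucp2 at a log2 fold change of 0.01 ± 0.03 (SE), with a 95% interval of -0.05 to 0.06 and a Benjamini-Hochberg adjusted p of 0.905. The interval spans 0.969-fold to 1.04-fold, so a 1.2-fold change lies outside it. At an adjusted p below 0.05, 5.44% of the 16406 genes tested were called in this comparison, 546 higher and 347 lower, and Ucp2 was not among them. Scaled by library totals, the split of calls was 185 higher and 913 lower. By size alone, 94.2% of the genes tested had a larger change than Ucp2, whereas the called genes had a median change of 1.12-fold. The value followed the libraries used. Libraries 1 and 2 alone gave -0.05 (edgeR adjusted p 0.834) and libraries 3 and 4 alone gave 0.07 (edgeR adjusted p 0.0807). This split was made after the levels above were seen, so the opposite signs restate those levels.

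Against macrophages alone, Ucp2 rose with STC1OE corpses by a log2 fold change of 0.07 ± 0.03 (SE; 95% interval 0.01 to 0.12; edgeR adjusted p 0.0373), which is 1.05-fold. Of all genes tested, 43.8% were called in that comparison, 21.4% higher and 22.4% lower, so being called did not set Ucp2 apart. The call was lost without STC1OE-corpse library 4 (0.05, edgeR adjusted p 0.10) and without library 3 or 4 of macrophages alone (0.06 and 0.07, adjusted p 0.108 and 0.0746). Scaled by library totals, the fold change was -0.0065 (edgeR adjusted p 0.850), so its direction turned with the scaling.

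Control corpses against macrophages alone gave Ucp2 0.06 ± 0.03 on the log2 scale (SE; 95% interval 0.01 to 0.11; edgeR adjusted p 0.0745), or 1.04-fold. This was not called, although the libraries of the groups did not overlap, in a comparison where 40.1% of genes tested were called, 19.7% higher and 20.5% lower. It passed at an adjusted p of 0.0296 when edgeR was fitted to these 2 groups only. Without any 1 of the 4 STC1OE-corpse libraries, whose spread enters the shared estimate, the edgeR adjusted p was 0.0231, 0.0261, 0.0400 and 0.0317. The 2 comparisons with macrophages alone share those libraries, and the difference between them is the corpse comparison above, which was not called. Over all comparisons and alternatives, the Ucp2 change lay between 0.968-fold and 1.09-fold.

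**Figure D3:**
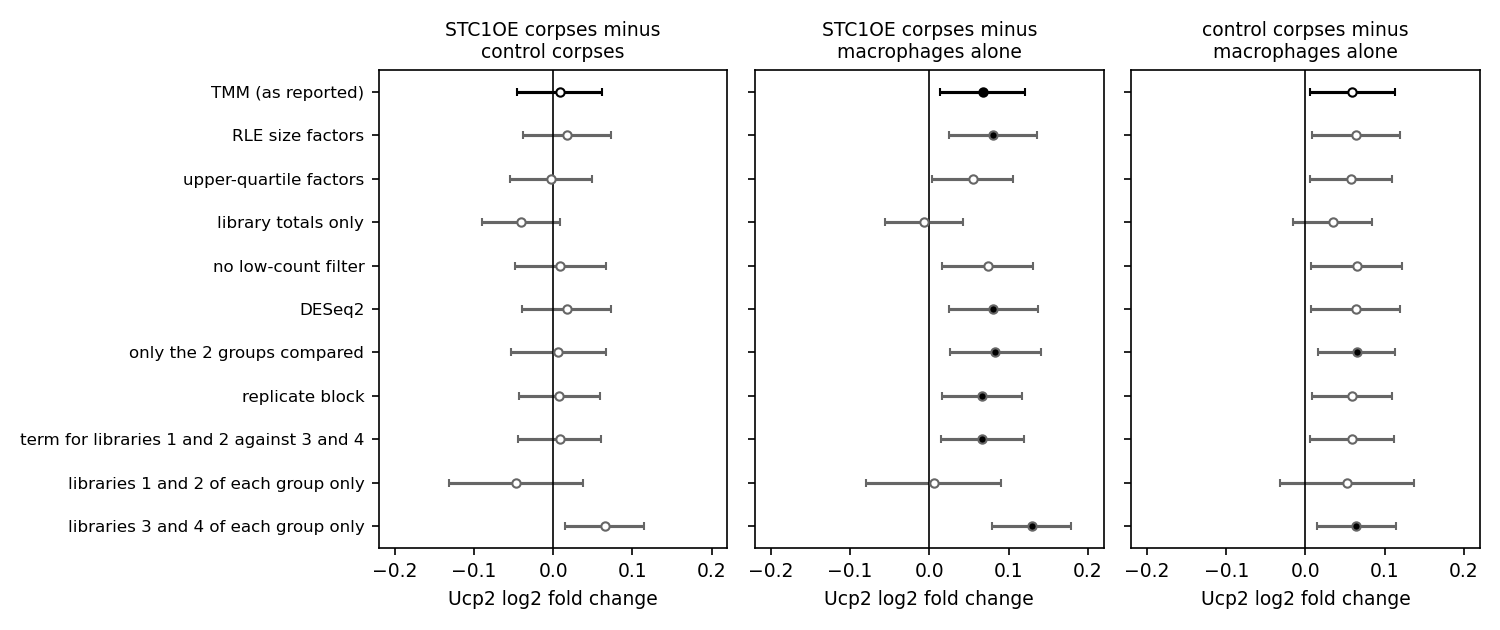
Log2 fold change of Ucp2 (points) with its 95% interval (lines) in the 3 comparisons under the reported setting and 10 alternatives; filled points have an adjusted p below 0.05. Between the corpse groups no point is filled and the points run from -0.05 to 0.07, and against macrophages alone the call comes and goes with the setting.

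The sequence just upstream of Ucp2 and of Stc2 is shown because genes of the hypoxia response were followed beside them and are described further on. They are RefSeq promoter sequences of GRCm38.p6, ending at the base before the gene's annotated start, with the hypoxia response core in capitals (ACGTG or GCGTG on either strand).
Ucp2, chr7:100493108-100493336, plus strand: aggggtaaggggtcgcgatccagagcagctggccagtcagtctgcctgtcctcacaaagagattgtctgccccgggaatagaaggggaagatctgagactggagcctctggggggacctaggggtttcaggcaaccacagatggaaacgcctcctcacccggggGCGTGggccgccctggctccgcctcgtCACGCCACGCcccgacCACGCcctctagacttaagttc
Stc2, chr11:31370075-31370311, minus strand: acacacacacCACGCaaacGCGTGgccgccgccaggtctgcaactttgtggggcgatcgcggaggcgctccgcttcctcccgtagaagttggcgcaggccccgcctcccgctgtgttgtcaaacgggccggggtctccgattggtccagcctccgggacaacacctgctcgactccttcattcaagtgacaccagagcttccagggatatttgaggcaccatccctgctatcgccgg
The core occurs 4 times in the 229 bases of Ucp2 and 2 times in the 237 bases of Stc2. Of 32851 promoters, 35.8% and 36.9% hold it in windows of those lengths. Both windows are 63.3% G and C, against a median of 52.0% and 51.9% over all promoters. A match to letters is no evidence of binding.

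Dnajb13, a gene of axonemal radial spokes in cilia and sperm, lies on the opposite strand and overlaps the 3′ end of Ucp2. It fell in all 3 comparisons, with 9.14 ± 0.894 CPM with STC1OE corpses, 11.0 ± 0.729 CPM with control corpses and 13.7 ± 0.246 CPM in macrophages alone (SD, n = 4 each). The log2 fold changes were -0.27 between the corpse groups (edgeR adjusted p 0.0168), -0.58 for STC1OE corpses against macrophages alone (2.48e-08) and -0.31 for control corpses against macrophages alone (0.000318). Between the corpse groups, the Dnajb13 call was lost without STC1OE-corpse library 4, without control-corpse library 1 or 4, and in libraries 1 and 2 alone (edgeR adjusted p 0.136, 0.0507, 0.0693 and 0.684). Strand use in counting is not given, so reads in the overlap cannot be told apart. Ucp3, the uncoupling protein of muscle and 6904 bases away on the same strand, was read at 0.197 ± 0.0218 CPM with STC1OE corpses, 0.331 ± 0.0956 CPM with control corpses and 0.264 ± 0.0687 CPM in macrophages alone, with no call.

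Of the other uncoupling and adenine nucleotide carriers, 6 of 8 listed genes passed the filter on low counts. By edgeR 0 of these were called between the corpse groups (0 by DESeq2, and 0 higher and 1 lower at an unadjusted p below 0.05), 1 higher and 1 lower with STC1OE corpses against macrophages alone, and 1 higher and 0 lower with control corpses. Of all genes tested, 5.44%, 43.8% and 40.1% were called in these comparisons. The median log2 fold changes of the 6 were -0.02 between the corpse groups, -0.08 for STC1OE corpses and -0.04 for control corpses against macrophages alone. All genes tested had medians of -0.01, -0.03 and -0.00096 in these comparisons. Slc25a5, which exchanges ADP and ATP across the inner membrane, was the one that rose, to 243 ± 3.79 CPM with STC1OE corpses and 249 ± 5.23 CPM with control corpses, against 212 ± 2.53 CPM in macrophages alone (edgeR adjusted p 6e-08 and 2.82e-09). Per kilobase it was read at 147.7 CPM with STC1OE corpses, 151.2 CPM with control corpses and 128.9 CPM in macrophages alone, somewhat above Ucp2. Slc25a30, also called KMCP1, was the one that fell, by 0.10 on the log2 scale with STC1OE corpses (edgeR adjusted p 0.0331). That call was lost when STC1OE-corpse library 2, 3 or 4, control-corpse library 3, or library 1, 3 or 4 of macrophages alone was left out (0.0561 to 0.187). With all libraries, edgeR also lost it with RLE factors (adjusted p 0.0673), without the filter (0.0634) and in the fit to 2 groups (0.0682). DESeq2 did not call it either (adjusted p 0.105), nor did edgeR in libraries 1 and 2 alone (0.271) or 3 and 4 alone (0.0690). Ucp1, the uncoupling protein of brown fat, had 0.0228 CPM with STC1OE corpses, 0.0139 CPM with control corpses and 0.0363 CPM in macrophages alone.

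Carriers that, like Ucp2, move 4-carbon acids, citrate, aspartate or glutamate went in both directions. Of 7 tested members, 3 rose and 1 fell with STC1OE corpses against macrophages alone, 2 rose and 2 fell with control corpses, and 1 rose between the corpse groups, with median log2 fold changes of 0.02, -0.0027 and 0.04. The 4 of 7 called in either comparison with macrophages alone are not far from the 43.8% and 40.1% of all genes tested, and 5.44% of all were called between the corpse groups. With control corpses, 1 in place of 2 fell in the fit without any of 11 single libraries, the member lost being Slc25a12 (edgeR adjusted p 0.0492 with all libraries), named after its values were seen. Slc25a22, a glutamate carrier, had 45.2 ± 0.634 CPM with STC1OE corpses, 43.8 ± 1.84 CPM with control corpses and 34.6 ± 0.408 CPM in macrophages alone. Slc25a10, the dicarboxylate carrier, had 43.4 ± 1.14 CPM with STC1OE corpses, 44.6 ± 0.752 CPM with control corpses and 37.8 ± 0.776 CPM in macrophages alone. Slc25a1, the citrate carrier, was the member that rose between the corpse groups, by 0.14 on the log2 scale (49.1 ± 1.01 CPM with STC1OE corpses and 44.5 ± 2.61 CPM with control corpses; edgeR adjusted p 0.0187). That call was lost without STC1OE-corpse library 3 (0.0720), without control-corpse library 3 (0.117) and with scaling by library totals (0.123). Slc25a18, the other glutamate carrier, fell against macrophages alone by 0.51 with STC1OE corpses and 0.33 with control corpses on the log2 scale (edgeR adjusted p 3.67e-05 and 0.00366).

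Most of the genes listed for superoxide and peroxide defence in the mitochondrion, where UCP2 limits superoxide, rose with either kind of corpse. Counts per gene do not show in which compartment a product acts. Of 9 tested genes, 6 were higher and 0 lower with STC1OE corpses and 6 were higher and 0 lower with control corpses, each against macrophages alone, and these counts were 6 without any single library and with scaling by library totals. Of all genes tested, 21.4% were higher and 22.4% lower with STC1OE corpses, and 19.7% higher and 20.5% lower with control corpses. The median log2 fold changes were 0.25 and 0.21. Gpx1, which reduces hydrogen peroxide with glutathione, had 562 ± 25.9 CPM with STC1OE corpses, 506 ± 15.7 CPM with control corpses and 342 ± 1.95 CPM in macrophages alone. Gpx4, which reduces lipid peroxides, had 244 ± 6.21 CPM with STC1OE corpses, 224 ± 2.17 CPM with control corpses and 168 ± 3.18 CPM in macrophages alone. Sod2, the superoxide dismutase of the matrix, had 85.8 ± 3.08 CPM with STC1OE corpses, 79.2 ± 1.70 CPM with control corpses and 62.3 ± 1.73 CPM in macrophages alone. Prdx3, the matrix peroxiredoxin, had 44.7 ± 1.71 CPM with STC1OE corpses, 44.5 ± 2.39 CPM with control corpses and 36.9 ± 0.989 CPM in macrophages alone (SD, n = 4 each here and in what follows).

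Between the corpse groups, 4 of these 9 genes were called higher with STC1OE corpses and 0 lower, in a comparison where 3.33% of all genes tested were higher and 2.12% lower. Gpx1 rose by 0.15 on the log2 scale, Gpx4 by 0.12, Sod2 by 0.12 and Prdx5, a peroxiredoxin named after its values were seen, by 0.11 (edgeR adjusted p 0.00134, 0.00278, 0.0229 and 0.0379). The count was 1 with scaling by library totals, 0 in libraries 1 and 2 alone and 4 in libraries 3 and 4 alone, and it fell to 2 without STC1OE-corpse library 3 or 4 or without control-corpse library 1 or 3. Sod2 was among those lost in each of these fits (edgeR adjusted p 0.119, 0.0513, 0.0731 and 0.0887). With all libraries, Prdx3, Txn2, Glrx2, Nnt and Txnrd2 of this list were not called. Their log2 fold changes were 0.0067, 0.04, 0.02, -0.49 and -1.09 (edgeR adjusted p 0.950, 0.441, 0.859, 0.266 and 0.484). Melanocyte marker RNA differed between the corpse groups as well, and its part in these results was not tested.

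The phagocyte NADPH oxidase, which makes superoxide at the phagosome, was split by subunit. Of 6 tested genes, 2 rose and 2 fell with STC1OE corpses, and 1 rose and 4 fell with control corpses, against macrophages alone, with median log2 fold changes of -0.04 and -0.09. These counts stand beside 43.8% and 40.1% of all genes tested called in either direction. Without control-corpse library 3, 2 in place of 4 fell with control corpses, and in libraries 1 and 2 alone 1 fell with either kind of corpse. With scaling by library totals, 4 in place of 2 fell with STC1OE corpses. Cyba, the smaller membrane subunit, was 680 ± 17.2 CPM with STC1OE corpses, 624 ± 14.6 CPM with control corpses and 563 ± 18.1 CPM in macrophages alone, and it was the only member called between the corpse groups (log2 fold change 0.13, edgeR adjusted p 0.0036; 0.08 and 0.0708 with scaling by library totals), joined by others to make 3 without STC1OE-corpse library 2. Its catalytic partner Cybb fell to 670 ± 10.05 CPM with STC1OE corpses and 677 ± 21.6 CPM with control corpses, against 716 ± 19.5 CPM in macrophages alone (edgeR adjusted p 0.00277 and 0.0114). The control-corpse call of Cybb was lost without control-corpse library 1 or 3 or library 1 of macrophages alone (0.0658, 0.0583 and 0.0559). Both calls were lost when only libraries 1 and 2 were fitted (0.394 with STC1OE and 0.362 with control corpses). The cytosolic subunit Ncf4 fell further, by 0.30 on the log2 scale with STC1OE corpses and by 0.37 with control corpses. Rac1, a small GTPase that can serve the complex, fell by 0.10 on the log2 scale with control corpses against macrophages alone (edgeR adjusted p 0.00171), which was lost in libraries 1 and 2 alone (0.0882). Rac2, the main GTPase of the complex in phagocytes, rose with STC1OE corpses by 0.12 (edgeR adjusted p 0.0184), which was lost without library 3 or 4 of macrophages alone (0.0508 and 0.0580), with scaling by library totals (0.266) and in libraries 1 and 2 alone, where the log2 fold change was 0.0046 (0.958).

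**Figure D4:**
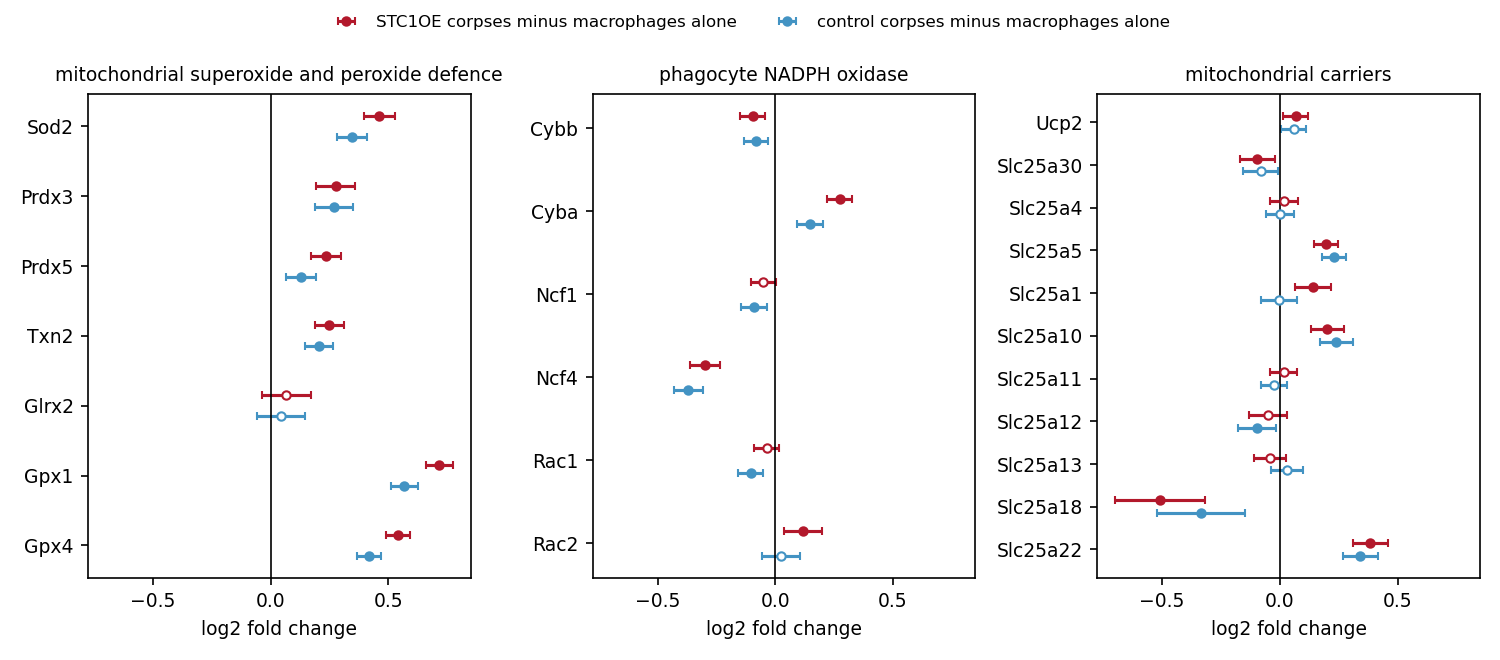
Log2 fold change against macrophages alone with its 95% interval for tested genes of 3 groups that average at least 5 CPM; red is STC1OE corpses, blue is control corpses, filled points have an adjusted p below 0.05, and both colours share the libraries of macrophages alone. Ucp2 sits near 0 at 0.07 and 0.06, while Gpx1, at 0.72 and 0.57, lies farthest to the right.

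Among regulators that are known to act on Ucp2 in other tissues, the receptors moved in opposite directions. Of 6 tested genes of the PPAR, RXR, PGC-1 and SREBP-1 list, 2 rose and 3 fell with STC1OE corpses, 1 rose and 4 fell with control corpses, each against macrophages alone, with median log2 fold changes of -0.15 and -0.25. Of all genes tested, 21.4% rose and 22.4% fell with STC1OE corpses, and 19.7% rose and 20.5% fell with control corpses. Between the corpse groups 0 were called by edgeR, with 1 higher and 1 lower at an unadjusted p below 0.05, and 1 was called higher by DESeq2. Pparg fell to 41.5 ± 2.09 CPM with STC1OE corpses and 44.1 ± 2.505 CPM with control corpses, against 64.2 ± 2.85 CPM in macrophages alone (edgeR adjusted p 2.44e-13 and 6.71e-12). Rxra, a shared partner of these receptors, rose to 158 ± 9.87 CPM with STC1OE corpses and 147.1 ± 7.97 CPM with control corpses, against 111 ± 5.29 CPM in macrophages alone. Rxrb fell to 34.3 ± 1.17 CPM with STC1OE corpses and 32.7 ± 0.588 CPM with control corpses, against 39.6 ± 2.68 CPM in macrophages alone. Ppargc1b, a coactivator, was called with STC1OE corpses against macrophages alone (0.28, edgeR adjusted p 0.00984) and missed the threshold with control corpses (0.18, 0.103). Without library 4 of macrophages alone the edgeR adjusted p of the first was 0.0563. It was 0.533 when only libraries 1 and 2 were fitted. The fall of Rxrb with STC1OE corpses missed the threshold in libraries 1 and 2 alone (edgeR adjusted p 0.0649).

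The pappalysin and IGF genes that stanniocalcin proteins act on were mostly near 0. Of 8 listed genes, 3 passed the filter: Igf1, Igfbp4 and Igf1r. By edgeR, 1 rose and 1 fell between the corpse groups, and 0 rose and 2 fell with either kind of corpse against macrophages alone (1 and 2 with STC1OE corpses and 0 and 2 with control corpses by DESeq2). Of all genes tested, 5.44% were called between the corpse groups, 43.8% with STC1OE and 40.1% with control corpses against macrophages alone. Pappa averaged 0.129 CPM with STC1OE corpses, 0.106 CPM with control corpses and 0.166 CPM in macrophages alone, and Pappa2 averaged 0.0304 CPM with STC1OE corpses, 0.0290 CPM with control corpses and 0.00707 CPM in macrophages alone. Igfbp4, the binding protein that pappalysin cleaves, fell in all 3 comparisons, with 128 ± 2.20 CPM with STC1OE corpses, 145.1 ± 4.96 CPM with control corpses and 168 ± 7.63 CPM in macrophages alone (edgeR adjusted p 0.000473, 3.91e-12 and 7.83e-07). Igf1 was among the most abundant genes shown here, at 986 ± 16.04 CPM with STC1OE corpses, 919 ± 8.01 CPM with control corpses and 952 ± 20.4 CPM in macrophages alone, and rose by 0.10 on the log2 scale with STC1OE against control corpses (edgeR adjusted p 0.00756; 0.05 and 0.178 with scaling by library totals). In libraries 1 and 2 alone, the calls of Igfbp4 and Igf1 between the corpse groups were lost (edgeR adjusted p 0.334 and 0.659). Igf1r, the receptor of IGF-1, fell with either kind of corpse, by 0.28 with STC1OE and 0.33 with control corpses.

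Stanniocalcins are known to be induced through the PERK-ATF4 and HIF responses, and 4 genes of the HIF response and Atf4 itself were called higher with STC1OE than with control corpses. Of 11 tested genes, 5 rose and 0 fell between the corpse groups: Bnip3, Epas1, Slc2a1, Vegfa and Atf4, of which the last 3 were named after their values were seen. Bnip3, a mitophagy receptor, had 7.86 ± 0.625 CPM with STC1OE corpses, 5.66 ± 0.602 CPM with control corpses and 6.18 ± 0.282 CPM in macrophages alone, a log2 fold change of 0.47 between the corpse groups (edgeR adjusted p 0.000857). Epas1, the gene of HIF-2 alpha, had 12.7 ± 0.975 CPM with STC1OE corpses, 10.1 ± 0.170 CPM with control corpses and 4.81 ± 0.502 CPM in macrophages alone. Against macrophages alone it was 2.64-fold higher with STC1OE corpses and 2.11-fold higher with control corpses. Slc2a1, the glucose transporter GLUT1, rose by 0.30 on the log2 scale between the corpse groups, Vegfa, a growth factor for vessels, by 0.19 and Atf4 by 0.12 (edgeR adjusted p 0.00571, 0.0288 and 0.0155). Atf4 had 96.6 ± 2.68 CPM with STC1OE corpses, 88.8 ± 3.25 CPM with control corpses and 99.2 ± 2.14 CPM in macrophages alone. Its mean with STC1OE corpses was thus not above that of macrophages alone. The other PERK-ATF4 genes were not called between the corpse groups, with edgeR adjusted p from 0.146 for Trib3 to 0.707 for Eif2ak3, and neither was Hif1a (0.970).

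The median log2 fold change of the 11 was 0.19 between the corpse groups. Against macrophages alone, 4 of the 11 rose and 2 fell with STC1OE corpses, and 2 rose and 6 fell with control corpses, with medians of -0.04 and -0.16. Asns and Trib3, targets of ATF4, fell with both, by 0.37 and 0.60 on the log2 scale with STC1OE corpses and by 0.51 and 0.93 with control corpses. The count of 5 between the corpse groups was 3 with scaling by library totals, 0 in libraries 1 and 2 alone, 6 in libraries 3 and 4 alone and 3 without STC1OE-corpse library 3. Of all genes tested, 3.33% were called higher and 2.12% lower in that comparison.

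The genes whose level followed Ucp2 most closely over the 12 libraries were Hnrnpul1, Taf3, Mmachc, Mrps22 and Plscr3, with a Pearson correlation of log2 CPM of 0.92, 0.89, 0.89, 0.89 and 0.88 among 10125 protein-coding genes of at least 2 CPM. Eid1, Dgkq and Wdfy1 ran most against it, at -0.89, -0.89 and -0.88. The points share library, depth and scaling, and Ucp2 varied by 3.30% in all, so these are descriptions. Taken within groups, after subtracting each group's mean, the correlation was 0.96 for Hnrnpul1 and -0.92 for Eid1. Hnrnpul1, an RNA-binding protein, had 189 ± 9.76 CPM with STC1OE corpses, 182 ± 2.504 CPM with control corpses and 177 ± 2.43 CPM in macrophages alone. It was picked for following Ucp2 over these libraries. Its wide spread with STC1OE corpses and its correlation within groups are therefore no separate finding.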

How the data were processed

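The deposited values are raw counts of reads per gene from HTSeq, 1 file per library. Per the submitters' processing notes, which give no versions, the tools were HISAT2, HTSeq and DESeq2 and the genome was mm10, also listed as GRCm38. The annotation release and the strand setting are not given in the sources used here. Lines of the deposited count files that name no gene, 41.0% to 46.6% of reads, were left out. Groups and replicate numbers came from the sample titles. Symbols were matched by identifier without version for 54723 of 55604 genes, 881 having none, and where a symbol had more than 1 identifier the one with more reads was used. Gene spans and transcripts are from GENCODE vM21 (GRCm38) and promoters from RefSeq, which matched Ucp2 and Stc2.

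The tests used edgeR 4.0.16 under R 4.3.3. Its filterByExpr, set to counts of at least 10 and totals of at least 15, kept 16406 genes, and TMM factors and robust quasi-likelihood fits to all 12 libraries followed, two-sided, with Benjamini-Hochberg adjustment over all genes tested. An adjusted p below 0.05 is a call. The common biological coefficient of variation was 4.53%. Stc1 and Stc2 failed the filter and were tested by exact permutation of 70 arrangements of libraries; their CPM are per assigned read without TMM factors, except per kilobase, which use TMM-scaled CPM. In the fit tested on simulated data with 16406 genes, 200 of them changed, 38.8% of 1.2-fold, 65.7% of 1.5-fold and 84.8% of 2-fold changes between the corpse groups were called, with 20 false calls. These 20 stand beside the called share of only 200 changed genes. Either comparison with macrophages alone had 7 false calls. Alternatives were RLE and upper-quartile factors, no filter, DESeq2 1.42.0, fits to 2 groups, the replicate number as a block, a term for libraries 1 and 2 against 3 and 4, single libraries left out and, added after the data were seen, library totals and either pair of libraries alone. A fit to a pair of libraries per group detects less than the full fit, so a call lost there need not mean a smaller change. The labels give no batch. The members, lists and the split of libraries were chosen with earlier results of these data known. The lists are given without a gene that is not reported here. Named genes are the members, up to 4 called genes per list with the largest change and at least 2 CPM, Ucp3, Slc25a5, Sod2 and Cybb, the neighbours of each member, and the 5 genes most like and 3 least like Ucp2. P-values set a difference between groups against the spread between these libraries.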

Additional observations from a re-analysis of the deposited data

Results flagged for a closer look

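In 3 of 123 groups of 4 libraries examined, for 39 tested genes plus the stanniocalcins, a library stood far from the other 3, by Dixon's criterion of 0.829. Chance gives about 1 in 20 groups such a library. Slc25a18, a glutamate carrier, was at 9.93 CPM in library 2 of macrophages alone, against 7.51 to 7.91 CPM in its other libraries. Pparg was at 40.4 CPM in library 2 with control corpses, against 45.0 to 45.9 CPM in the others. Epas1 was at 11.2 CPM in library 1 with STC1OE corpses, against 13.0 to 13.3 CPM in the others. None of the 9 groups of Stc1, Stc2 and Ucp2 libraries was among them.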

How the results depend on the processing

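Between the corpse groups Ucp2 was called under no alternative. Its log2 fold change turned to -0.00266 with upper-quartile factors, -0.0472 in libraries 1 and 2 alone and -0.0407 with library totals, and ranged from -0.0106 to 0.0258 with single libraries left out. For STC1OE corpses against macrophages alone it was 0.0547 with upper-quartile factors, 0.0735 without the filter and 0.0053 in libraries 1 and 2, none called, -0.00651 with library totals, and 0.0542 to 0.0963 with single libraries left out. For control corpses against macrophages alone it was called in the fit to 2 groups (0.0645), in libraries 3 and 4 (0.0642), without library 1 of macrophages alone (0.0722, edgeR adjusted p 0.0471) and without any 1 STC1OE-corpse library, and ranged from 0.0512 to 0.0722 with single libraries left out.

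The Stc1 ratio of STC1OE to control corpses ranged from 2.80 to 6.60 with single libraries left out, and that of STC1OE corpses to macrophages alone from 2.38 to 5.89. For control corpses to macrophages alone it was 1 from raw counts, 1.19 in libraries 1 and 2, and 0.492 to 1.60 with single libraries left out. The Stc2 ratio of STC1OE to control corpses was 1 from raw counts, 0 in libraries 1 and 2 (0 against 2 reads), and 0.371 to 1.67 with single libraries left out. The ranges for Stc2 against macrophages alone were 0.262 to 1.39 with STC1OE and 0.458 to 1.28 with control corpses. In libraries 1 and 2 alone, Stc2 against macrophages alone had no value for STC1OE corpses and no ratio for control corpses, since macrophages alone had no read there.

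Calls between the corpse groups were 546 higher and 347 lower as reported, 27 (0.164% of genes tested) and 6 (0.0363%) in libraries 1 and 2, 1298 (7.83%) and 627 (3.78%) in libraries 3 and 4, and 185 (1.13%) and 913 (5.57%) with library totals. With single libraries left out they ranged from 1.68% to 4.35% higher and from 0.874% to 2.83% lower. Those that moved them by over 1.5 times were STC1OE-corpse library 3 (1.68% and 1.15%) and 4 (2.04% and 0.874%), and control-corpse library 1 (1.11% lower) and 3 (1.96% and 1.22%). In libraries 1 and 2, against macrophages alone, calls were 2255 (13.7%) higher and 2395 (14.5%) lower with STC1OE corpses and 1997 (12.1%) and 2093 (12.7%) with control corpses. With single libraries left out these ranged from 19.5% to 22.5% and 19.0% to 22.2%, and from 17.6% to 21.0% and 17.3% to 19.8%. TMM scaling moved the median log2 fold change by 0.05, 0.07 and 0.03 relative to library totals. Of 1430 alternative values for 33 called genes other than Ucp2, 1357 kept direction and call, 73 lost the call and 0 turned. Ucp2, called with STC1OE corpses against macrophages alone, lost that call in 6 of 22 alternatives and turned direction in 1 more. The cause of these differences was not tested.

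Each gene's log2 CPM, after subtracting its group's mean, was correlated between same-numbered libraries of different groups. These correlations ran from -0.123 to 0.192, so replicate numbers gave no clear pairing. The same number was the best match for 2 of 4 libraries between the corpse groups. It was the best match for 1 of 4 between either corpse group and macrophages alone. With the replicate block Ucp2 was 0.0079, 0.07 and 0.06 (edgeR adjusted p 0.899, 0.0288 and 0.0576). Stc1 kept its ratios with exact sign permutation p of 0.25, 0.125 and 0.875, and Stc2 with 1, 0.5 and 1. These tests have 16 arrangements, so 0.125 is the smallest p they can give and none could fall below 0.05. Calls between the corpse groups were 677 higher and 412 lower. The main limits are depth, at which a count of 0 still allows a level of up to 3 reads, and 4 libraries per group.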
